A study of Mus musculus with 12 samples.

Results

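The Frizzled receptors are the 10 genes *Fzd1* to *Fzd10*, which encode the receptors that bind Wnt proteins at the cell surface. They were taken by gene name from a table of 55397 genes, and all 10 were found once and held enough counts to be tested, among 18264 genes tested in all. RNA was sequenced from primary cultures of newborn mice, 3 heterozygous *Myt1l* (+/-) and 3 wild-type *Myt1l* (+/+) animals, with 2 libraries per animal. *Myt1l* encodes a zinc finger transcription factor of neurons, and the mutant allele is a germline deletion of 7 bp in exon 6 that shifts the reading frame. By the labels the mutant transcript does not decay, so *Myt1l* counts cannot check the genotypes. The labels give cortex, C57BL/6J and male for every animal, whereas the study's methods name hippocampus or cortex for its cultures and C57BL/6N for the mice. Both genotypes were cultured alike, with serum and with Ara-C, which kills dividing cells, and were harvested at day in vitro 11.

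A Frizzled protein carries a cysteine-rich domain outside the cell that holds the Wnt lipid, 7 helices through the membrane, and a short inner tail that recruits Dishevelled. With the co-receptors Lrp5 or Lrp6 this recruitment stabilises beta-catenin, which switches on target genes with TCF/LEF factors. With co-receptors such as Ror2, Ryk or Ptk7, or with the planar polarity proteins Celsr and Vangl, the same receptors act on the cytoskeleton. By sequence the family falls into the groups *Fzd1*, *Fzd2* and *Fzd7*, then *Fzd5* and *Fzd8*, then *Fzd4*, *Fzd9* and *Fzd10*, and last *Fzd3* and *Fzd6*. In the nervous system *Fzd3* is known for its part in axon guidance, *Fzd4* for retinal and brain vessels, and *Fzd9* for hippocampal neurons.

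The Dishevelled-recruiting motif of the inner tail is common to the family, and its coding bases are listed below in the order of the sequence groups. How closely the members relate was not measured from these bases. The GENCODE M21 annotation on GRCm38 has the same coordinates as the deposited table for all 10 genes. Its longest coding transcripts encode between 537 (*Fzd4*) and 709 (*Fzd6*) amino acids, and 7 of the 10 genes have their coding sequence in 1 exon. The motif was found once in each of the 10 genes. The lines that follow give 30 coding bases each, 5′ to 3′ on the gene's strand, for the 9 members shown, with the codons for its lysine, threonine and tryptophan in capitals.
Fzd1: tccggcAAGACActgaattccTGGaggaag
Fzd2: tccggcAAGACActgcactcgTGGaggaag
Fzd7: tcgggcAAGACCctgcagtcaTGGcgtcgc
Fzd5: tccggcAAGACTctggagtctTGGcggcgg
Fzd4: tctgccAAAACTcttcacacgTGGcaaaag
Fzd9: agttccAAGACTtttcagactTGGcagagc
Fzd10: acttccAAGACCctgcagtccTGGcaacac
Fzd3: agcaaaAAGACAtgctttgaaTGGgccagt
Fzd6: agcaaaAAGACGtgcacagaaTGGgccggg

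These stretches lie in coding exons at chr5:4755700-4755729 (minus strand, *Fzd1*), chr11:102606367-102606396 (plus, *Fzd2*), chr1:59484601-59484630 (plus, *Fzd7*), chr1:64735005-64735034 (minus, *Fzd5*), chr7:89408235-89408264 (plus, *Fzd4*), chr5:135249410-135249439 (minus, *Fzd9*), chr5:128602790-128602819 (plus, *Fzd10*), chr14:65212101-65212130 (minus, *Fzd3*) and chr15:39033943-39033972 (plus, *Fzd6*). In *Fzd1*, *Fzd2* and *Fzd7* 17 amino acids follow the motif, whereas 159 follow it in *Fzd3* and 206 in *Fzd6*. The like sequences bear on the counts only a little. The longest run of identical bases between any 2 of the 45 pairs of member transcripts was 47 bases, in *Fzd1* with *Fzd2* and with *Fzd7*, which is shorter than the reads of 100 bases. Of the distinct words of 31 bases in *Fzd2*, 1.90% also occurred in another Frizzled transcript, which was the highest share of the 10 members. *Fzd5* overlaps *Gm38058* on the opposite strand over 1512 bases, and 17.3% of its words occurred in a gene outside the family. No source used here gives whether reads were counted by strand, so *Fzd5* counts may include reads of that gene.

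RefSeq (GRCm38.p6) gave promoter windows of 300 bases for 6 of the 10 members (*Fzd1*, *Fzd4*, *Fzd5*, *Fzd7*, *Fzd9* and *Fzd10*). They were searched on both strands for AAAGTT, the core that MYT1L binds, and for CTTTGAT, which TCF/LEF factors bind. AAAGTT stood in 1 of the 6 windows, that of *Fzd10*, and in 14.1% of 32851 promoter windows of the same length. It is shown because it was the only match found in these windows. The stretch is gaagaagaggccAAAGTTtgcgcgctgagc at chr5:128600957-128600986 on the plus strand, with the match in capitals. It lies upstream of the RefSeq start but inside the *Fzd10* transcript of GENCODE M21, which starts at base 128600844, so that it counts as promoter by RefSeq alone. CTTTGAT stood in 0 of the 6 windows and in 3.73% of all windows. Such a match is a description of the letters and no evidence of binding.

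Libraries held 20181477 to 26594444 counts. Both libraries of an animal were added up, which makes the animal the replicate, and totals per animal ran from 40642699 to 52833161. Levels are given as CPM, counts scaled to library size after TMM normalisation. Animals are named by the numbers in the labels, 505, 506 and 508 for *Myt1l* (+/-) and 510, 511 and 513 for (+/+). What sets both libraries of an animal apart is not stated. 3 of the 6 animals stood apart from the rest. The (+/+) culture 511 is labelled male but held 18805 counts of *Xist*, which is transcribed from the inactive X chromosome of females, against 5 to 10 counts in the other 5. The (+/-) culture 505 had the lowest summed level of 12 neuron markers, at 2495 CPM against 4290 to 5582 CPM elsewhere. The (+/+) culture 513 had summed levels of astrocyte and of radial glia markers within the range of the (+/-) cultures, which did not hold for every single marker.

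Relative to exon length, *Fzd3* and *Fzd1* were the most abundant Frizzled transcripts of these cultures. In (+/+) cultures the level per kb of exon was 13.5 ± 2.85 CPM (SD, n = 3) for *Fzd3* and 11.9 ± 4.18 CPM for *Fzd1*. There followed *Fzd7* (4.62 ± 0.116), *Fzd2* (4.09 ± 0.396), *Fzd6* (3.76 ± 1.08), *Fzd4* (2.94 ± 0.278), *Fzd8* (2.77 ± 0.155), *Fzd9* (2.03 ± 0.389), *Fzd10* (1.03 ± 0.179) and *Fzd5* (0.692 ± 0.0347), all in CPM per kb. *Fzd3* stood above *Fzd1*, *Fzd1* above *Fzd7*, *Fzd6* above *Fzd4*, *Fzd8* above *Fzd9* and *Fzd10* above *Fzd5* in 6 of 6 animals. *Fzd7* stood above *Fzd2* in 3 of 3 (+/+) and in 0 of 3 (+/-) animals, *Fzd4* above *Fzd8* in 3 and 1, and *Fzd9* above *Fzd10* in 3 and 2. *Fzd2* stood above *Fzd6* in 2 of 3 (+/+) animals and in 1 of 3 (+/-) animals, so this pair was separated in neither genotype. *Fzd3* supplied 28.5 ± 0.945% of the summed Frizzled level per kb in (+/+) and 29.6 ± 2.10% in (+/-) cultures (SD, n = 3), and *Fzd1* supplied 24.6 ± 4.15% and 26.9 ± 3.12%.

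**Figure D1:**
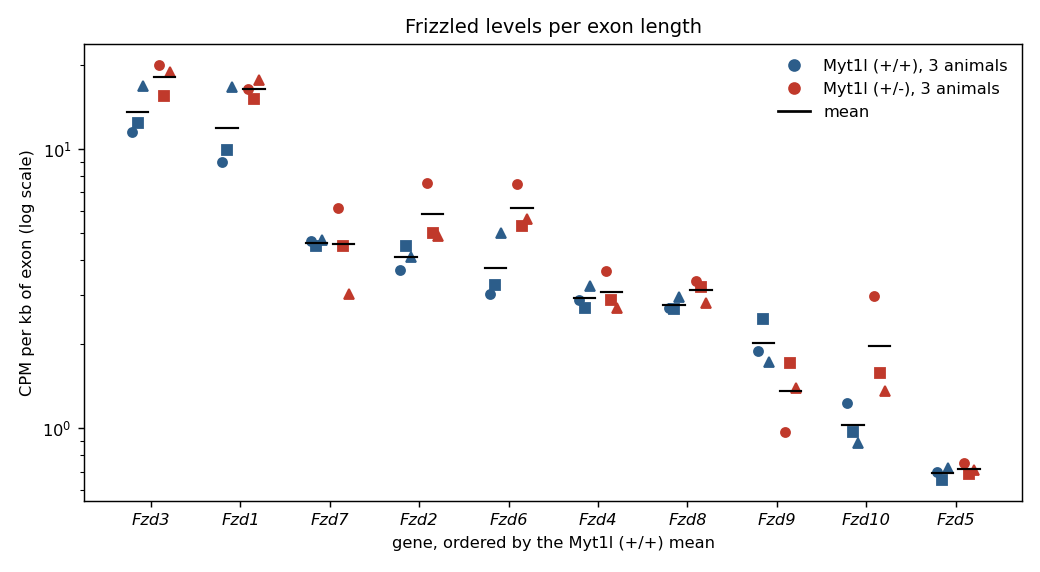
Level of each Frizzled gene in CPM per kb of exon (y axis, log scale), ordered along the x axis by the (+/+) mean, with 1 point per animal (blue (+/+), red (+/-)) and a bar at each group's mean. *Fzd3* and *Fzd1* stand highest, at means of 13.5 and 11.9 in (+/+) cultures, and *Fzd5* lowest at 0.692.

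The question of the comparison was whether Frizzled transcripts differ between *Myt1l* (+/-) and (+/+) cultures. By the quasi-likelihood test of edgeR with Benjamini-Hochberg adjustment over all 18264 genes, 0 of the 10 members passed an adjusted p under 0.1, against 0% of all genes tested. The smallest adjusted p was 0.168 for a member (*Fzd6*) and 0.166 over all genes. The log2 fold change, (+/-) against (+/+), was above 0 for 8 members and below 0 for 2, with a median of 0.30 over the members (0.20 without 505) and 0.00 over all genes tested. At an unadjusted p under 0.05, 4 members were higher (*Fzd2*, *Fzd3*, *Fzd6* and *Fzd10*), against 13.2% of all genes, and 1 was lower (*Fzd9*), against 9.11%. In 3 members all (+/-) animals had higher CPM than all (+/+) animals (*Fzd2*, *Fzd6* and *Fzd10*), against 15.5% of all genes, and in 1 (*Fzd9*) every (+/-) animal lay below, against 13.5%. The other 6 overlapped between genotypes. In bulk RNA, fewer cells of a type and less RNA per cell cannot be told apart.

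**Figure D2:**
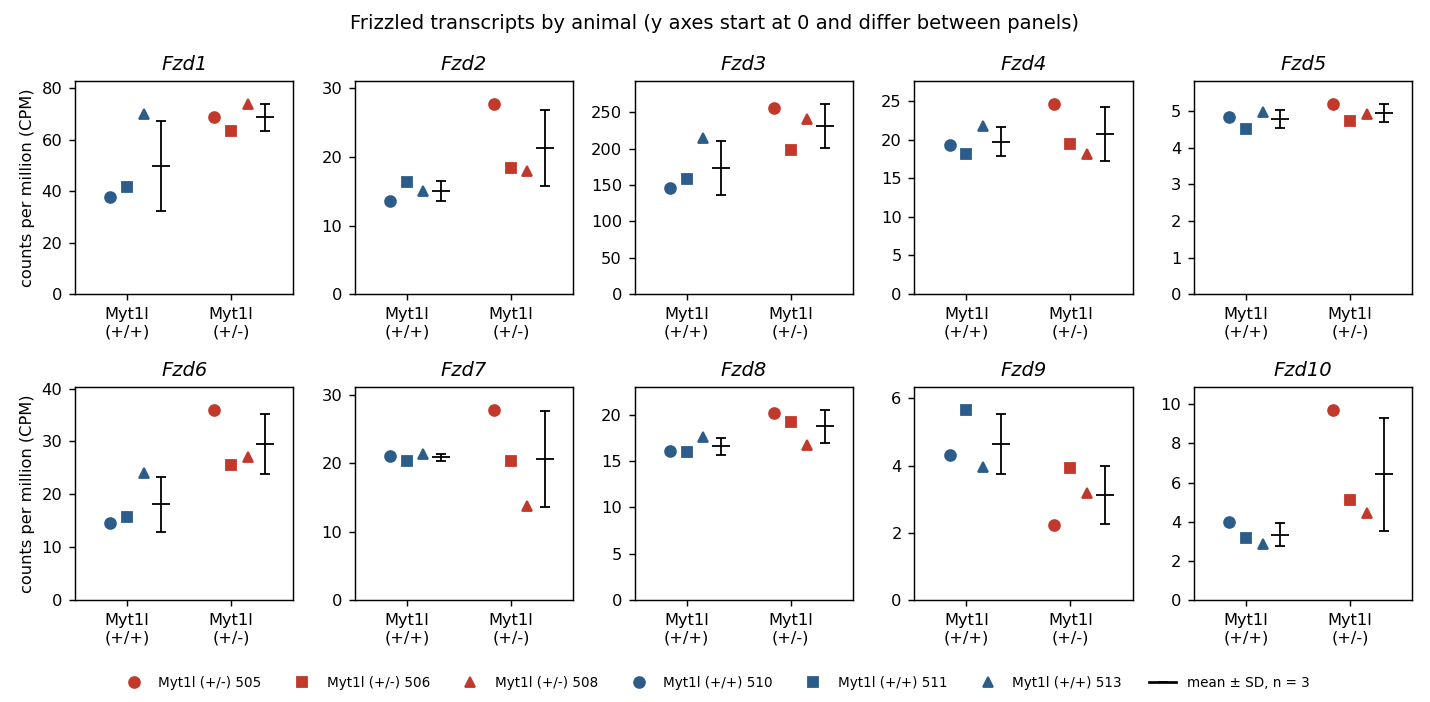
CPM of each Frizzled gene (y axis, linear from 0) in each (+/+) animal (blue) and (+/-) animal (red), with the mean and SD of 3 animals beside the points and 1 symbol per animal. *Fzd2*, *Fzd6* and *Fzd10* are higher in all 3 (+/-) animals than in any (+/+) animal and *Fzd9* is lower, while for *Fzd1*, *Fzd3* and *Fzd6* animal 513 lies above the other (+/+) animals.

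Calls depended on the fit. DESeq2 called 2 members higher, *Fzd6* (adjusted p = 0.0422) and *Fzd10* (adjusted p = 0.0528), where it called 8.01% of the 17200 genes with an adjusted p higher and 4.57% lower. edgeR without the low-count filter called the same 2 genes higher (adjusted p = 0.0523 and 0.0737), where it called 3.16% of 32322 genes higher. Those 32322 genes include ones of very low counts, unlike the members, which lowers that share. Without (+/+) animal 513, edgeR called *Fzd1*, *Fzd3* and *Fzd6* higher, where it called 12.3% of 18638 genes higher and 5.95% lower. With all 12 libraries as samples and the library number as a block, 6 members were called higher and 1 lower, where 24.1% and 21.5% of 16588 genes were called. That last fit counts each animal as more than 1 sample.

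*Fzd1*, *Fzd2* and *Fzd7*, receptors known from beta-catenin signalling, did not share one pattern. *Fzd2*, which also binds Wnt5a, was at 27.7, 18.4 and 17.9 CPM in (+/-) animals 505, 506 and 508 and at 13.5, 16.4 and 15.03 CPM in (+/+) animals 510, 511 and 513. The groups did not overlap, with the lowest (+/-) value 9.12% above the highest (+/+) value, and 505 was the highest animal. The log2 fold change was 0.51 ± 0.18 (SE), with an edgeR adjusted p of 0.188, and an exact two-sided permutation test of the mean CPM gave p = 0.1, the smallest that 3 animals against 3 allow. Without 505 the log2 fold change was 0.28.

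*Fzd1* was at 68.8, 63.3 and 73.9 CPM in (+/-) animals and at 37.6, 41.7 and 69.8 CPM in (+/+) animals. Its groups overlapped through 513 alone, which lay with the (+/-) animals. Its log2 fold change was 0.47 (95% interval -0.05 to 0.98, edgeR adjusted p = 0.246), 0.78 without 513 (adjusted p = 0.0189) and 0.29 without 510 (adjusted p = 0.539). *Fzd7*, which is expressed in progenitors, was at 27.8, 20.4 and 13.7 CPM in (+/-) and at 21.1, 20.3 and 21.3 CPM in (+/+) animals. The (+/-) animals spread to both sides of the (+/+) values, with a coefficient of variation of 34.2% against 2.52%. Its log2 fold change was -0.02 (95% interval -0.54 to 0.50), and it was -0.30 without 505 and 0.20 without 508.

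*Fzd3* and *Fzd6*, the pair best known from planar polarity, both had higher means in (+/-) cultures. *Fzd6* (chr15:39006034-39038188, plus strand) was at 35.9, 25.5 and 27.1 CPM in (+/-) and at 14.6, 15.7 and 24.04 CPM in (+/+) animals. The groups stood apart by 6.13%, with 505 highest and 513 nearest to the (+/-) animals. A log2 fold change of 0.71 ± 0.21 (SE, 95% interval 0.21 to 1.21) had an edgeR adjusted p of 0.168 and an exact permutation p of 0.1. Without 513 it was 0.95 (adjusted p = 0.0252), without 505 it was 0.54, and without 511 it was 0.61.

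*Fzd3* (chr14:65192449-65262463, minus strand) was at 256, 198 and 241 CPM in (+/-) and at 147, 159 and 215 CPM in (+/+) animals. 513 lay above 506, so the groups overlapped. The log2 fold change was 0.42 ± 0.17 (SE, 95% interval 0.03 to 0.81, edgeR adjusted p = 0.209), and 0.59 without 513 (adjusted p = 0.0521). As a share of the summed Frizzled level per kb, *Fzd6* took 9.96 ± 0.699% in (+/-) and 7.85 ± 0.822% in (+/+) cultures (SD, n = 3), with no overlap between the animals.

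*Fzd4*, *Fzd9* and *Fzd10*, which share a sequence group, went 3 ways. *Fzd10* (chr5:128600844-128604093, plus strand), the gene with AAAGTT in its RefSeq window, was at 9.70, 5.12 and 4.43 CPM in (+/-) and at 3.996, 3.16 and 2.88 CPM in (+/+) animals. All (+/-) animals lay above the (+/+) animals, by at least 10.7%, and 505 lay far above the other (+/-) animals. The log2 fold change of 0.94 ± 0.31 (SE, 95% interval 0.22 to 1.65) was the largest of the family, with an edgeR adjusted p of 0.176 and an exact permutation p of 0.1. Without 505 it was 0.51. It rested on 123 to 440 counts per animal, and the CPM of both libraries of one animal differed by up to 46.1%.

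*Fzd9* (chr5:135248938-135251230, minus strand) was the member with the clearest negative value, at 2.23, 3.94 and 3.20 CPM in (+/-) and 4.32, 5.65 and 3.96 CPM in (+/+) animals. The groups were separated by 0.55%, between 506 and 513, and 505 was the lowest animal. The log2 fold change was -0.58 ± 0.24 (SE, 95% interval -1.14 to -0.01), with an edgeR adjusted p of 0.219 and an exact permutation p of 0.1. It was -0.38 without 505 and -0.41 without 511. *Fzd4*, the receptor of the non-Wnt ligand Norrin, was at 24.6, 19.4 and 18.1 CPM in (+/-) and 19.4, 18.1 and 21.8 CPM in (+/+) animals. Its groups overlapped, with a log2 fold change of 0.07 (95% interval -0.25 to 0.39), which was -0.07 without 505.

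*Fzd5* and *Fzd8*, receptors of forebrain and eye development, had the narrowest intervals. *Fzd5* was at 5.20, 4.73 and 4.92 CPM in (+/-) and 4.84, 4.52 and 4.99 CPM in (+/+) animals, with a log2 fold change of 0.05 (95% interval -0.25 to 0.35). *Fzd8* was at 20.2, 19.2 and 16.7 CPM in (+/-) and 16.1, 15.98 and 17.6 CPM in (+/+) animals, with a log2 fold change of 0.18 (95% interval -0.07 to 0.42). Both overlapped between genotypes. As shares of the summed level per kb, *Fzd4* (5.02 ± 0.385% against 6.27 ± 0.660%) and *Fzd5* (1.18 ± 0.0797% against 1.49 ± 0.215%) were lower in every (+/-) than in every (+/+) animal (SD, n = 3), while their CPM overlapped. The sum that these shares divide by had a higher mean in (+/-) cultures, at 61.2 ± 7.23 against 47.3 ± 8.30 CPM per kb. Its groups overlapped, with 513 at 56.75 above 506 at 55.42 CPM per kb. A share can thus fall while the gene's own level does not.

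Leaving out 511, the animal that went against its label, gave log2 fold changes of 0.35 for *Fzd1*, 0.58 for *Fzd2*, 0.36 for *Fzd3* and 0.90 for *Fzd10*, all with the sign of the fit over 6 animals.

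**Figure D3:**
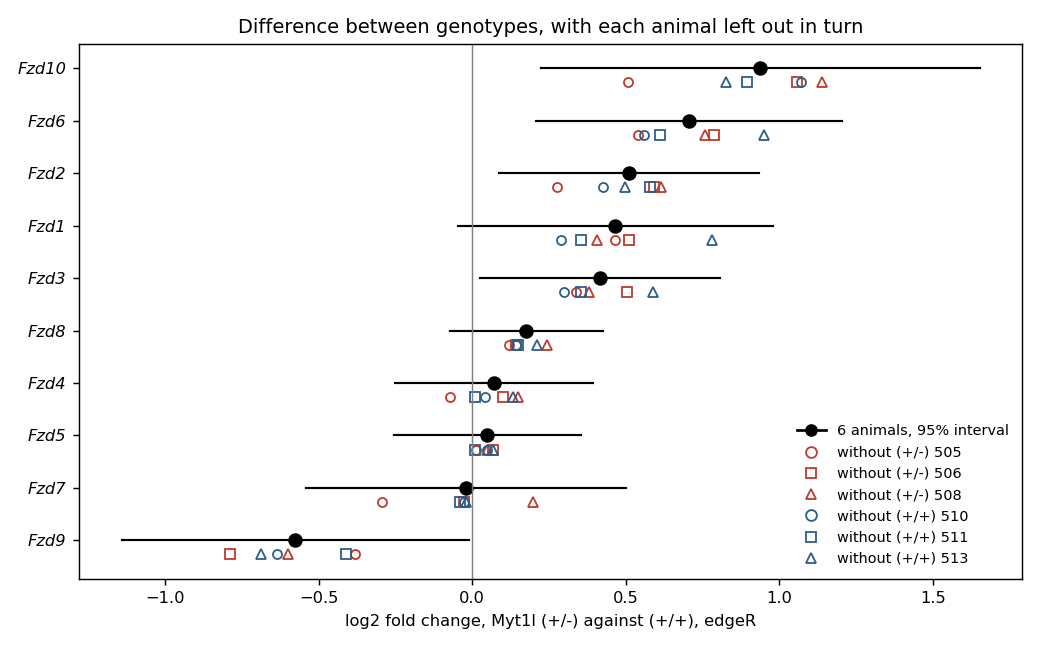
log2 fold change of each Frizzled gene, (+/-) against (+/+), by edgeR (x axis), as a black point with its 95% interval, and the same value with each animal left out in turn (open symbols, red for (+/-) and blue for (+/+) animals). *Fzd10*, *Fzd6* and *Fzd2* keep values above 0 whichever animal is left out and *Fzd9* keeps values below 0, while *Fzd7* and *Fzd4* take both signs.

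Libraries of one animal differed little for most members. Between both libraries of an animal the counts differed by a chi-square of 0.291 (*Fzd5*) to 2.94 (*Fzd7*) per degree of freedom, with 6 degrees of freedom per member, where 1 is sampling noise. *Fzd10* had 2.05 and *Fzd2* 1.29, and the other 7 were under 1. Over animals, the coefficient of variation ran from 4.76% (*Fzd5*) to 44.7% (*Fzd10*) in (+/-) and from 2.52% (*Fzd7*) to 35.3% (*Fzd1*) in (+/+) cultures.

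Summed levels of several cell type marker lists separated the genotypes, beside the Frizzled genes. The summed level of 10 ependymal markers was 1103 to 1298 CPM in (+/-) and 602 to 840 CPM in (+/+) animals, and all 10 had positive log2 fold changes. Summed levels were also higher in every (+/-) animal for 10 choroid plexus markers (505 to 1833 against 150 to 368 CPM, 9 of 10 positive), 11 microglia markers (169 to 293 against 120 to 145 CPM, 11 of 11 positive) and 10 proliferation genes (74.4 to 102 against 44.4 to 65.0 CPM, 9 of 10 positive). The summed level of 12 neuron markers was lower in every (+/-) animal, at 2495 to 4749 against 4813 to 5582 CPM, with 12 of 12 negative. Animal 505 was at 2495 CPM, while 506 and 508 were at 4290 and 4749 CPM, nearer to the lowest (+/+) sum. Taken singly, 5 of the 12 neuron markers were lower in every (+/-) than in every (+/+) animal, against 13.5% of all genes. Higher in every (+/-) animal were 10 of 10 ependymal, 7 of 10 choroid plexus, 5 of 11 microglia and 7 of 10 proliferation genes. The share over all genes was 15.5%, and 1 choroid plexus marker was lower in every (+/-) animal. Abundant genes weigh most in a sum, and *Ttr* alone held 1302 CPM of the choroid plexus sum of 505. None of these marker genes passed the edgeR threshold.

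Astrocyte markers summed to 11880 to 13480 CPM in (+/-) animals and to 8592, 8335 and 12820 CPM in 510, 511 and 513, with 9 of 12 positive. Radial glia markers summed to 6254 to 7270 CPM against 4645, 4324 and 6347 CPM, with 8 of 10 positive. 513 was thus the highest (+/+) animal for both lists, as it was for 7 of the 10 members (*Fzd1*, *Fzd3* to *Fzd8*). Both sums mostly follow their most abundant genes. In 513 *Gfap* held 6156 CPM of the astrocyte sum and *Vim* held 5021 CPM of the radial glia sum. The lists for oligodendrocyte lineage (5 of 7 tested positive, 106 to 130 against 85.7 to 109 CPM), meningeal fibroblasts (10 of 10, 461 to 1842 against 229 to 938 CPM), endothelium (6 of 8 tested, 40.2 to 70.4 against 29.8 to 42.6 CPM) and mural cells (8 of 10, 660 to 1085 against 614 to 791 CPM) overlapped between genotypes. 0 of the listed markers were at 0 counts in all animals. The part of these cell types in the Frizzled values was not tested.

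**Figure D4:**
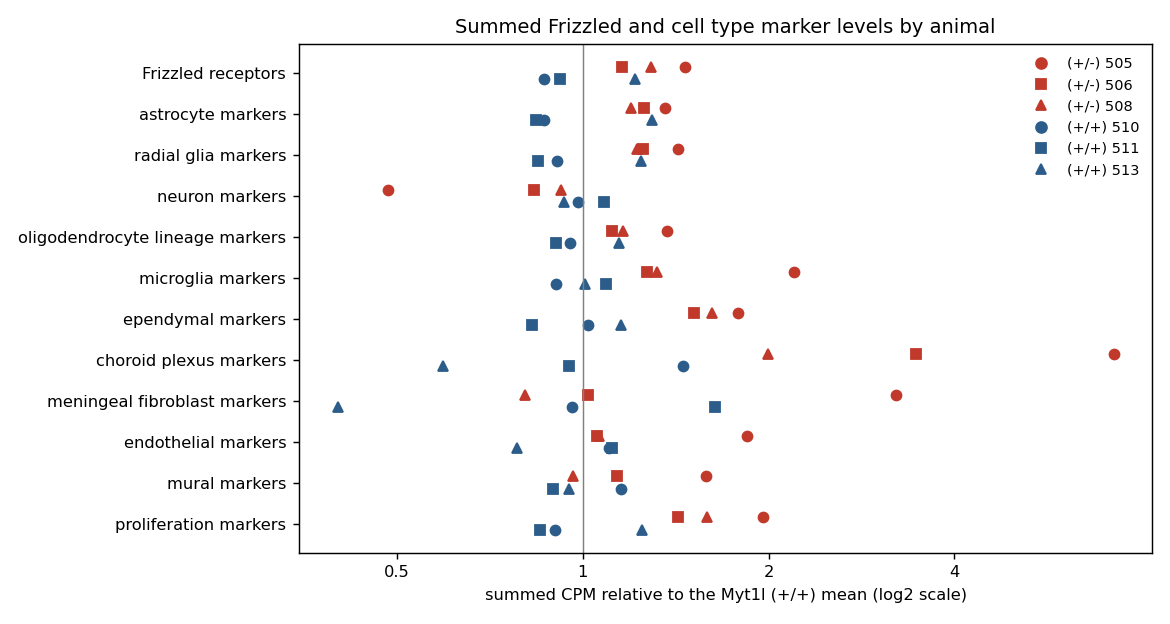
Summed CPM of the Frizzled receptors and of each cell type marker list in each animal, divided by the (+/+) mean of that list (x axis, log2 scale; red (+/-), blue (+/+)). Choroid plexus, ependymal, microglia and proliferation sums are higher and neuron sums lower in all 3 (+/-) animals. The Frizzled, astrocyte and radial glia sums of animal 513 lie among the (+/-) animals. Abundant genes weigh most in each sum.

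Other genes of the pathway were described from 7 lists of general knowledge and from *Smo*, the class F relative of the Frizzleds that transduces Hedgehog signals. Of 98 genes, 88 were tested and 0 passed the edgeR threshold. Of these 58 had positive and 30 negative log2 fold changes, with a median of 0.16 against 0.00 over all genes. All (+/-) animals were above all (+/+) animals in 16 of the 88 (18.2%) and below them in 11 (12.5%), against 15.5% and 13.5% of all genes. DESeq2 called 11 of 86 with an adjusted p higher (12.8%, against 8.01% of all genes) and 6 lower (6.98%, against 4.57%). edgeR without 513 called 14 of 88 higher (15.9%, against 12.3%) and 7 lower (7.95%, against 5.95%). Genes given below with a log2 fold change and SE had the smallest unadjusted p of their list, which favours groups without overlap.

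The co-receptors had a median of 0.42, which was 0.21 without 505, and 7 of 7 were positive, with *Ptk7* lowest at 0.03. *Musk*, the receptor kinase of the neuromuscular junction, had the smallest p of the list and was at 11.4, 7.15 and 9.54 CPM in (+/-) and at 4.27, 3.47 and 5.99 CPM in (+/+) animals, with a log2 fold change of 1.03 ± 0.25 (SE, edgeR adjusted p = 0.166). *Lrp5*, which pairs with Frizzleds in beta-catenin signalling, had 0.42 ± 0.12 with no overlap between genotypes, and *Ror1*, a co-receptor for Wnt5a, had 0.48 ± 0.18 with overlap and 0.31 without 505. The summed level of the list was 275 to 350 CPM in (+/-) and 236 to 272 CPM in (+/+) animals.

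Of 14 tested Wnt ligands 9 were positive, with a median of 0.06. *Wnt8b* was at 4.28, 5.31 and 4.18 CPM in (+/-) and at 3.13, 2.98 and 2.29 CPM in (+/+) animals (log2 fold change 0.71 ± 0.19), and *Wnt5a* was at 102, 64.9 and 67.6 against 48.2, 55.8 and 56.9 CPM (0.54 ± 0.18). *Wnt7b* was lower in every (+/-) animal, at 47.0, 76.9 and 66.0 against 95.5, 107 and 81.0 CPM (-0.58 ± 0.19). Without 505 the value of *Wnt5a* was 0.30. The median of the ligands was -0.11 without 513 and 0.20 without 508.

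Among partners that steer Frizzled activity or turnover, 13 of 17 were positive, with a median of 0.22. *Shisa2*, which retains Frizzleds inside the cell, had 0.70 ± 0.24, *Lgr6*, an R-spondin receptor, had 0.53 ± 0.19, and *Ndp*, which encodes the *Fzd4* ligand Norrin, had 0.59 ± 0.22. *Shisa2* and *Lgr6* did not overlap between genotypes, and *Ndp* did through 513, without which it had 0.89. The median of this list was 0.09 without 505 and 0.36 without 508. Of 12 tested secreted antagonists and Dkk receptors 8 were positive (median 0.12, and 0.04 to 0.19 with 1 animal left out). *Kremen1*, a Dkk receptor, had 0.41 ± 0.11, whereas *Sfrp2*, a soluble Wnt-binding protein at 1.10 CPM or less in every animal, had -1.19 ± 0.30. *Kremen2*, at only 0.221 to 1.671 CPM and with overlap between genotypes, had -1.23 ± 0.47. Its value was -0.85 without 508 and -1.70 without 506.

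Downstream of the receptors the signs were mixed. Of 17 cytoplasmic transducers 10 were negative (median -0.06, and -0.10 without 506). Lower in every (+/-) animal were 5 of the 17, against 13.5% of all genes, and 1 was higher in every (+/-) animal. The 5 included *Apc* (-0.37 ± 0.13), *Gsk3a* (-0.37 ± 0.14) and *Csnk1e* (-0.37 ± 0.12). Of 14 feedback targets of beta-catenin 9 were positive (median 0.18, and 0.08 without 505). *Axin2* is the standard readout of beta-catenin activity. It was at 33.01, 25.4 and 27.1 CPM in (+/-) and at 18.6, 20.2 and 23.0 CPM in (+/+) animals (0.47 ± 0.13). *Tnfrsf19* had 0.37 ± 0.15, while *Myc* had -0.42 ± 0.11. Of the 14 targets only these 3 did not overlap, 2 higher and 1 lower in (+/-) animals. The shares over all genes were 15.5% and 13.5%. Of 12 planar polarity genes 7 were positive (median 0.08, and 0.02 to 0.11 with 1 animal left out), with *Vangl1* at 0.62 ± 0.17, *Invs* at 0.67 ± 0.24 and *Celsr3* at -0.45 ± 0.16. Without 505 the values were 0.20 for *Tnfrsf19*, -0.24 for *Gsk3a* and -0.28 for *Celsr3*, and without 513 *Invs* had 1.01. *Smo* was at 97.2, 78.0 and 78.1 against 56.7, 55.1 and 72.6 CPM (0.46 ± 0.14).

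**Figure D5:**
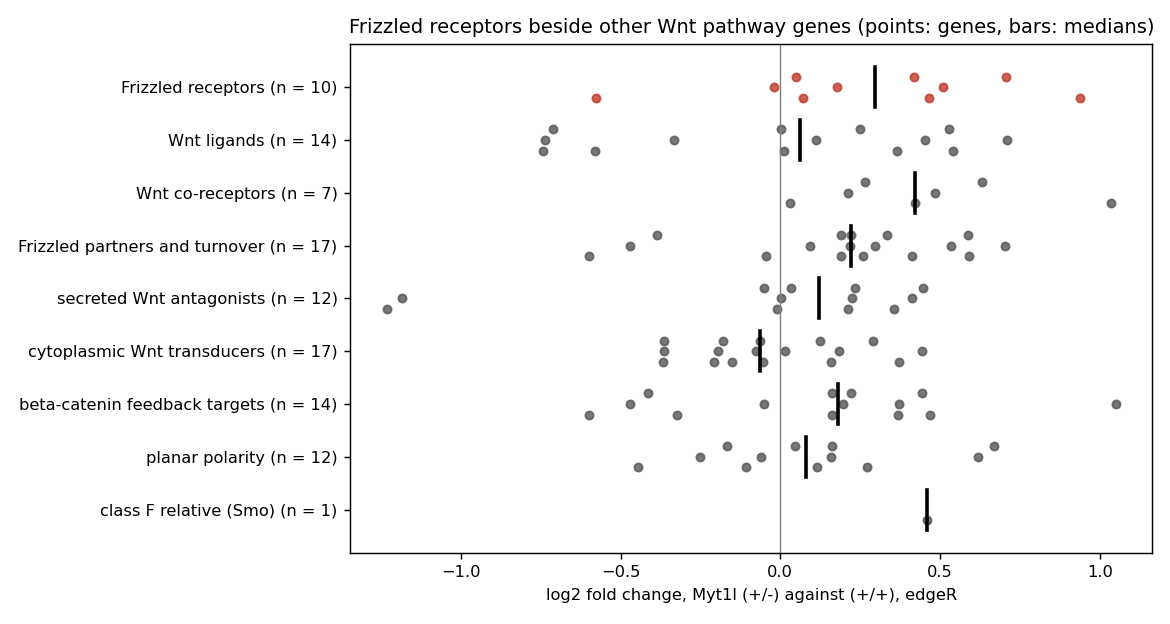
log2 fold change, (+/-) against (+/+), by edgeR (x axis) for each tested gene (points) of the Frizzled family (red) and of the other Wnt pathway lists (grey), with the list's median as a bar. The Frizzled median is 0.30 and the co-receptor median 0.42, while the cytoplasmic transducers have a median of -0.06, and 0 genes shown passed the adjusted threshold.

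Profiles over the 6 animals were compared with those of 12486 genes of at least 5 mean CPM, by the root mean square difference of mean-centred log2 CPM. Each value is a description over 6 points that share their libraries. For *Fzd2* the nearest genes were *Wnt5a* (0.0543), *Spry1* (0.0576), an inhibitor of receptor kinase signalling, and *Rbms3* (0.0663). For *Fzd10* they included *Gbp6* (0.0643) and *Ptgds* (0.102), a prostaglandin D synthase. For *Fzd9*, alone in its direction among the members whose groups stood apart, they were *Syndig1l* (0.0557), *Lpl* (0.0613), lipoprotein lipase, and *Myrip* (0.0634).

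*Fzd1* was nearest to *Ston2* (0.0483), *Paqr6* (0.0628) and *Gm42820* (0.0643), *Fzd3* to *5031425E22Rik* (0.0294), *Crtc3* (0.0437) and *Sh3pxd2b* (0.0445), and *Fzd6* to *Glb1l2* (0.0337), *A930007A09Rik* (0.0433) and *Cyp4f16* (0.0434). Within the family, *Fzd1* and *Fzd3* were each other's nearest member (0.137), and *Fzd3* was also the nearest member to *Fzd6* (0.176) and to *Fzd2* (0.228). *Fzd4* was nearest to *Dbt* (0.0306), *Wrn* (0.0317) and *Bbx* (0.0359), *Fzd7* to *Akap12* (0.0850), *Nfatc4* (0.0869) and *Akr1c14* (0.0925), and *Fzd8* to *Frmpd1* (0.0176), *Eci2* (0.0268) and *Anp32b* (0.0294).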

How the data were processed

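RNA of 12 libraries from 6 animals was analysed. The deposited values were raw counts by gene for each library, which the authors made from paired-end reads of 100 bases from strand-marked libraries that were mapped to mm10 with STAR per the labels and methods. No source used here names the read counter. Deposited normalised counts and the authors' table of fold changes and p-values were not used here. Both libraries of an animal were added up. Totals per animal were 40642699 to 52833161 counts, and mitochondrial genes took 3.40% to 4.25%. Genotypes were compared in R 4.3.3 with edgeR 4.0.16 (filterByExpr by genotype, TMM, quasi-likelihood test, Benjamini-Hochberg over 18264 genes, adjusted p under 0.1), tested on simulated counts first. The fit had no sex term, since all animals are labelled male, although the authors used genetic sex. Alternatives were DESeq2 1.42.0, its size factors, a newer quasi-likelihood method, no or a stricter filter (1 CPM in 3 animals), either library alone, 12 libraries with the library number as a block, and each animal left out. Exact permutation tests are two-sided. Likeness used log2(CPM + 0.5).

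The members and lists were chosen with earlier results of these data known. Named were all 10 members, up to 3 genes of the smallest unadjusted p per pathway list, *Smo*, and the 3 genes of most like profile for each member above 10 CPM or whose groups did not overlap. One gene that this rule names is not reported here. The library numbers paired no animals: the difference between both libraries correlated between animals at -0.0165 to 0.0170 over 15 pairs.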

Additional observations from a re-analysis of the deposited data

How the results depend on the processing

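The Frizzled log2 fold changes kept their direction under the alternatives tried, except that *Fzd7* was 0.0095 with library 1 alone and ranged from -0.30 to 0.20 with 1 animal left out, and *Fzd4* ranged from -0.0733 to 0.15. The number of members called higher was 2 with DESeq2 (8.01% of all genes), 2 without the low-count filter (3.16%) and 0 to 3 with 1 animal left out. The 3 were reached without animal 513 alone (12.3% of all genes). With 12 libraries and the replicate block, 6 were called higher and 1 lower (24.1% and 21.5% of all genes). Members called lower were 0 to 0 with 1 animal left out. Of the Wnt pathway genes, DESeq2 called 11 higher and 6 lower (8.01% and 4.57% of all genes), and leaving out 1 animal gave 0 to 14 higher and 0 to 7 lower, the most without 513 (12.3% and 5.95% of all genes). The cause of these shifts was not tested. The counts of members whose groups stood apart, 3 above and 1 below, were the same under DESeq2 size factors and total-count scaling. Among all genes 15.5% stood above and 13.5% below with TMM. With 3 animals per genotype, an exact permutation test cannot go below p = 0.1, and *Fzd9* and *Fzd10* rest on as few as 101 and 123 counts in an animal.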
